A study of Mus musculus with 22 samples.

Results

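The lungs described here received the highest of the instilled doses of Mitsui7, a multi-walled carbon nanotube: 162 µg in a single intratracheal instillation, compared with the vehicle alone. The arrays were taken by their titles, 6 labelled for the high dose and 5 labelled Control, 11 of the 22 arrays of the series. All animals were female C57BL/6 mice, 8 weeks old when the experiment began, and the right lung was collected 24 h after instillation. Control mice received 0.9% NaCl with 10% BAL (bronchoalveolar lavage fluid), so that both groups had the procedure and the lavage proteins in common. The remaining arrays, 6 mice at 18 µg and 5 at 54 µg, enter only as other doses. The study's methods give 6 mice per group, and 5 control arrays were analysed here.

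Carbon nanotubes of this kind are long, stiff and biopersistent fibres, which macrophages take up incompletely. Particles that reach the alveoli and small airways are met by macrophages and by the epithelium, and these cells release cytokines of the interleukin 1 and interleukin 6 families and chemokines that recruit neutrophils and monocytes. The acute phase response, best known from the liver, also takes place in lung tissue and raises serum amyloid A, haptoglobin, hemopexin and protease inhibitors of the serpin family. Airways of the mouse carry ciliated cells, whose cilia move mucus, and club cells, which metabolize foreign compounds. Whole right lung was measured, and a lower level in such bulk RNA cannot tell fewer cells of a type from less RNA per cell.

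Each array was hybridized with lung RNA in Cy5 and with Universal Mouse Reference RNA, pooled from 11 mouse cell lines, in Cy3. A level is given as the log2 ratio of lung over reference signal, so that 0 means equal signal in both, and levels of different probes are not compared with each other. A fold change at 162 µg is the difference in mean log2 ratio from control in a limma model with the slide as a covariate, followed by its standard error (SE). A gene was called when its Benjamini-Hochberg adjusted p was 0.05 or less, its change was at least 1.5-fold and its probe was brighter than the negative control spots on 80% or more of the arrays of any group. Values below are for the probe with the highest mean intensity of each gene, named through RefSeq.

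At 162 µg, 549 of 16422 expressed genes were called higher (3.34%) and 580 were called lower (3.53%). These percentages are the background for every count of list members below. Counting every probe of a gene, 1268 genes were called, of which 634 were higher, 636 were lower and 2 had probes called both ways. The rises were larger than the falls. A change of at least 4-fold was reached by 33 genes that rose and by 1 gene that fell, and log2 fold changes ran from -2.60 to 6.37. All 6 treated mice lay above all 5 controls for 308 of the genes called higher, and below all of them for 327 of the genes called lower. Those counts were taken among genes called on the same arrays, so they are a description. The share of all expressed genes with such separation is not given here. Higher calls made up 49.9%, a split that depended on scaling: with loess replaced by centring each array on its median, 370 genes were called and 24.9% of the calls were higher. Of the 204 called genes of the named set described below, 129 lost the call under that centring, and without normalization within arrays 8 genes were called in all. The median log2 fold change of all expressed genes was -0.01, and -0.18 after that centring, so the direction of a small positive list median depends on scaling.

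**Figure D1:**
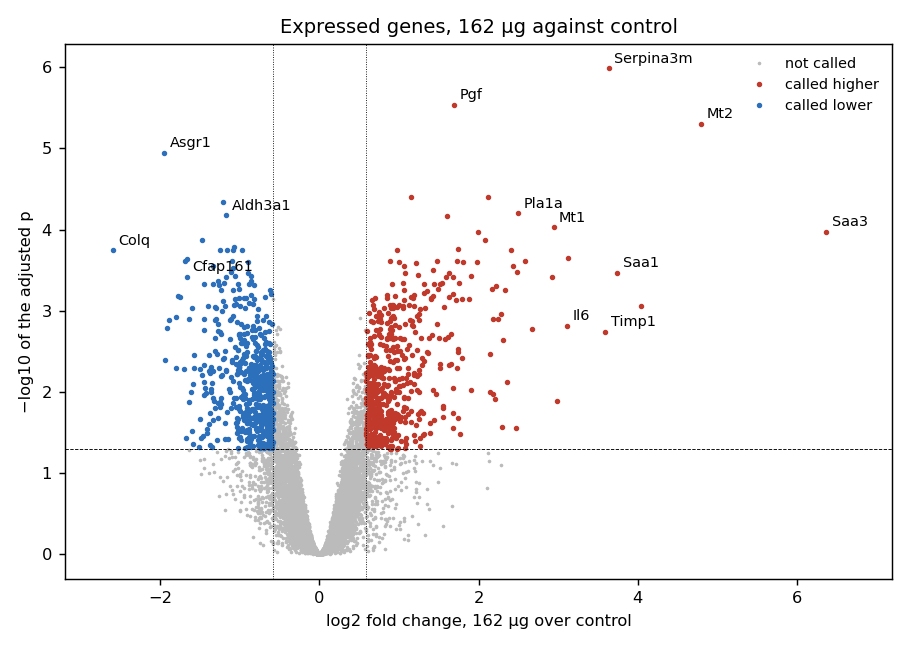
Log2 fold change at 162 µg over control (x axis) against -log10 of the limma adjusted p (y axis) for 16422 expressed genes, one point per gene, with 549 called higher in red, 580 called lower in blue and the others in grey. The dashed line marks an adjusted p of 0.05 and the dotted lines a 1.5-fold change; Saa3 lies farthest to the right at 6.37 and Colq farthest to the left at -2.60.

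Arrays differed in quality within the high-dose group. Between 70.4% and 77.5% of probes exceeded background in controls and between 50.3% and 83.5% at 162 µg, with 162 µg replicates 4 and 6 lowest. Both lay on slides without a control array. Control replicate 2 differed from the other controls in several stress-hormone and neutrophil genes, given below. Without 162 µg replicates 4 and 6, 1233 genes were called. Leaving out one array at a time gave 885 (without control replicate 3) to 1453 (without 54 µg replicate 3). On the 4 slides that held both groups, 96.1% of the genes called higher and 96% of those called lower had the same sign on every slide, against 15.5% and 17% of all expressed genes with that sign. The calls rest on the same arrays, so these shares are a description.

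Saa3, an acute phase serum amyloid A made by macrophages and epithelium, had the largest change. Its log2 ratio was -4.18, -1.93, -3.83 and -3.43 in 4 controls, and 2.30, 3.08 and 3.74 (lowest, median, highest) in the 6 mice at 162 µg. The groups did not overlap, and control replicate 3, whose spot was left out, did not enter this fit. The change was 6.37 ± 0.65 (log2, SE; adjusted p = 1.07e-04, limma), 82.7-fold. Saa1 had -1.23, -1.19, 0.73, -1.23 and -1.73 in controls against 1.92, 3.09 and 3.52 at 162 µg. Control replicate 3 was the highest control, and still below the lowest treated lung. Saa1 rose by 3.74 ± 0.47 (adjusted p = 3.40e-04).

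Serpina3m, a serine protease inhibitor of the antichymotrypsin family, was measured at 0.65, 1.12, 1.91, 0.51 and 0.29 in controls. At 162 µg it ranged from 3.21 through a median of 4.92 to 5.34, with no overlap, and its change of 3.64 ± 0.24 had the lowest adjusted p of the genes named here (1.04e-06). Hpx encodes hemopexin, the plasma protein that binds free heme. Control lungs had Hpx at 0.83, 0.76, 1.22, 0.51 and 0.73, and treated lungs at 1.43 (lowest), 3.58 (median) and 4.21 (highest). Replicate 5 of the 162 µg group gave the 1.43 and stood well below the other treated lungs, yet above every control. The rise was 2.43 ± 0.30 (adjusted p = 2.82e-04).

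Of 25 expressed acute phase proteins, 12 were called higher and none lower, and the median log2 fold change was 1.10 against -0.01 over all expressed genes. The mean level of the list was 0.87 to 1.76 in controls and 2.08 to 3.11 at 162 µg, so that all 6 treated mice were above all controls. With any one array left out, 11 to 14 members were called, and 12 were called without 162 µg replicates 4 and 6. All 25 members had a positive log2 fold change.

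**Figure D2:**
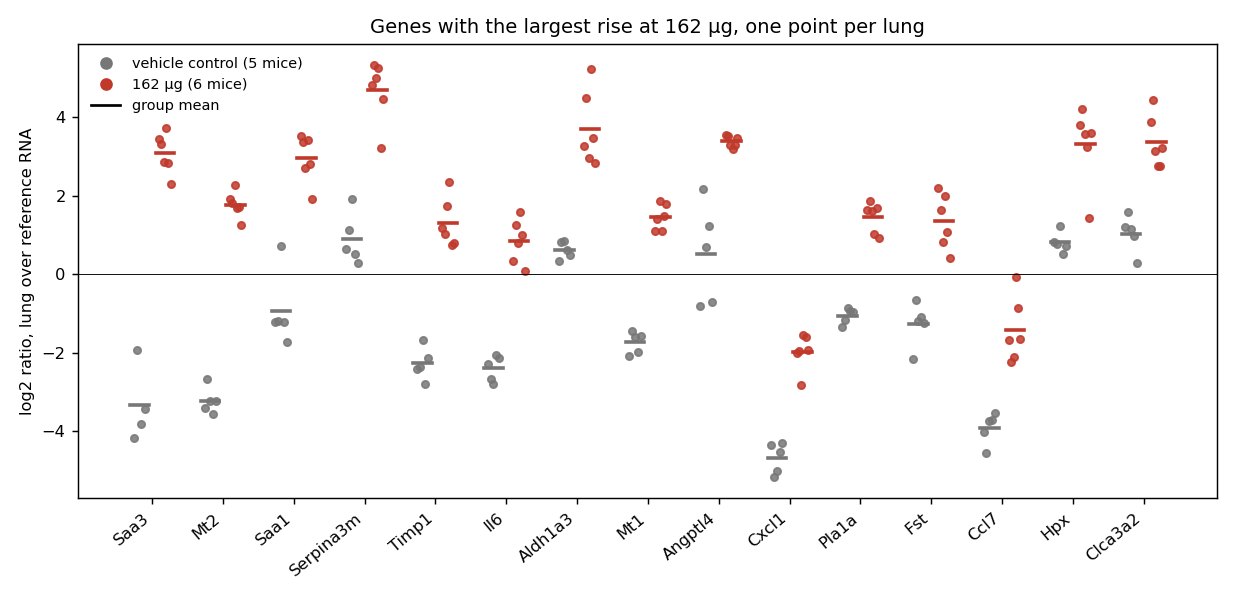
Log2 ratio of lung over reference RNA (y axis) for the 15 genes with the largest rise among those with all 6 treated mice above all controls (x axis); grey points are the control lungs, red points the 6 lungs at 162 µg and bars the group means. Saa3 has 4 control points because 1 spot was left out, and Angptl4 and Saa1 have the widest controls.

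Metallothioneins are small cysteine-rich proteins that bind zinc and copper and are induced by metals, glucocorticoids and inflammation. Mt2 had log2 ratios of -3.42, -2.67, -3.24, -3.57 and -3.24 in controls and of 1.25, 1.76 and 2.26 at 162 µg. The groups were far apart, and the rise was 4.79 ± 0.38 (adjusted p = 5.01e-06), 27.7-fold. Mt1 moved from -2.10, -1.45, -1.62, -1.98 and -1.58 to 1.09, 1.44 and 1.88, again without overlap, a change of 2.94 ± 0.30 (adjusted p = 9.39e-05). Of the 24 expressed metallothionein and zinc transporter genes, 5 were called higher and 1 lower. Slc39a14 and Slc39a8, zinc importers of the plasma membrane, rose by 1.98 ± 0.24 and 1.16 ± 0.19. Slc30a2, which moves zinc into vesicles, fell by 1.09 ± 0.25 (adjusted p = 0.0136), a call lost without control replicate 5 (adjusted p = 0.0588). The median of the list, 0.18, turned to -0.05 after median centring.

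The metal response element, bound by the factor MTF1, and the NF-kB element are textbook regulators of metallothionein and chemokine genes. The 250 bases upstream of the RefSeq start of 4 genes with large rises are shown in build GRCm38.p6, to let the letters be read beside the values. Capitals mark metal response elements (TGCACNC or TGCGCNC, either strand) in Mt2 and Mt1, and NF-kB elements (GGGANNTTC, either strand) in Il6 and Cxcl1.
Mt2 (chr8:94172368-94172617, forward strand): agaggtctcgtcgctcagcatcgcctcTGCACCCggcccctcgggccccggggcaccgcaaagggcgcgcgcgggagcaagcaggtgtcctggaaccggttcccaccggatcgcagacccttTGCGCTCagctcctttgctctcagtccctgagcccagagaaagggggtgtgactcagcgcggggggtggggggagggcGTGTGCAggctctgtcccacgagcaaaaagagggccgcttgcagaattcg
Mt1 (chr8:94178839-94179088, forward strand): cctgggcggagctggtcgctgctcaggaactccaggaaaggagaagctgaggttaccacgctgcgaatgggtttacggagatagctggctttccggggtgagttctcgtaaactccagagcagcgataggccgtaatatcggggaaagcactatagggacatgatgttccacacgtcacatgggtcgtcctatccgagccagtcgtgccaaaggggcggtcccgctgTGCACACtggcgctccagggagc
Il6 (chr5:30012864-30013113, forward strand): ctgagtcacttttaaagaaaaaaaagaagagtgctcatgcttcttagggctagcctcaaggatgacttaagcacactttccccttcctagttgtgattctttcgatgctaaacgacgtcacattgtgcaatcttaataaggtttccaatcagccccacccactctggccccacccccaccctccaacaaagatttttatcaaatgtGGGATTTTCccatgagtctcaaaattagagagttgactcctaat
Cxcl1 (chr5:90890995-90891244, forward strand): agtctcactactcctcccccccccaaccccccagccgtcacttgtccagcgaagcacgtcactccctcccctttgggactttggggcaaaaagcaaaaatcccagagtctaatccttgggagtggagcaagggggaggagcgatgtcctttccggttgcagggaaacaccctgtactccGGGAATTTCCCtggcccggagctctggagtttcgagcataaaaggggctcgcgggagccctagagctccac
The window of Mt2 held 3 metal response elements, 223, 128 and 50 bases before the start, and that of Mt1 held 1, 23 bases before it. Il6 had 1 NF-kB element 44 bases before its start, and Cxcl1 had 2 overlapping elements, 71 and 69 bases before it. All 4 windows shown hold the element marked in them. Those of Saa3 and Saa1, also with large rises, held neither element, and that of Slc30a2, which fell, held 2 metal response elements. A match is a description of letters, not a bound site.

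Across promoters, the share with such letters differed little between genes that rose, genes that fell and all expressed genes for most elements. The metal response element was in 27.6% of the 420 promoters matched to genes called higher, 31.3% of the 451 of genes called lower and 27.5% of the 13004 of all expressed genes. For NF-kB the shares were 3.3%, 4.2% and 3.0%. The AP-1 element (TGANTCA), bound by Fos and Jun proteins, was in 9.5% of promoters of genes called higher, 4.9% of those called lower, 5.2% of all expressed genes and 6.9% of all 27025 promoters. The window of Il6 also held this element. The antioxidant response element (TGACNNNGC) was in 15%, 14% and 11.5%, the STAT element (TTCNNNGAA) in 5.7%, 6.2% and 6.3%, and the heat shock element (GAANNTTC) in 3.1%, 5.1% and 5.3%, of genes called higher, called lower and all expressed.

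Interleukin 6 signals through gp130 and STAT3, and induces its own feedback inhibitor Socs3. Il6 had log2 ratios of -2.29, -2.68, -2.81, -2.06 and -2.13 in controls and of 0.08, 0.89 and 1.59 at 162 µg. The groups did not overlap. No control array had Il6 well above background, so its rise is given as at least 8.38-fold (adjusted p = 0.00153). This bound sets the mean of the treated lungs against a floor for each control array, which is the dimmest signal still well above background, or the Il6 signal itself where that is higher. Socs3 rose by 1.28 ± 0.22 (adjusted p = 0.00215), and its values of -0.04, -0.09, -0.60, -0.79 and -0.59 in controls lay below the 0.73 to 1.36 of treated lungs. Of 20 expressed members of the interleukin 6 family and its feedback, 4 were called higher and none lower, and 2 were called without control replicate 3, without 162 µg replicate 2, or without 162 µg replicates 4 and 6. The mean level of the list was 0.01 to 0.09 in controls and 0.48 to 0.66 at 162 µg.

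The CC chemokines, which attract monocytes and lymphocytes, had 5 of 17 expressed members called higher and 1 lower, with a median log2 fold change of 0.87. Ccl2, the main attractant of monocytes, had -4.43, -3.90, -4.03, -4.48 and -3.54 in controls and -2.43, -1.98 and -0.62 at 162 µg. All treated lungs were above the controls, and the rise was 2.21 ± 0.49 (adjusted p = 0.0122). Ccl7 rose by 2.47 ± 0.64 (adjusted p = 0.0279), also with no overlap. The call of Ccl7 was lost when any one of the 5 controls or 162 µg replicate 1 or 5 was left out, with adjusted p from 0.0552 to 0.0842. Ccl3 rose by 1.43 ± 0.29 (adjusted p = 0.00942) in a fit that lacks control replicate 3 and 162 µg replicate 2. Ccl11, an eosinophil attractant, had an adjusted p of 0.0570 for a log2 fold change of 2.12 ± 0.63, and was not called although all 6 treated lungs (2.71 to 4.86) lay above the controls (0.75 to 1.80). Without control replicate 3, 3 CC chemokines were called higher.

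Among 16 expressed CXC and other chemokines, 3 were called higher and none lower. Cxcl1, a neutrophil attractant, was measured at -4.37, -5.19, -5.03, -4.53 and -4.32 in controls against -2.82, -1.95 and -1.55 at 162 µg. The groups were separate, with a rise of 2.59 ± 0.31 (adjusted p = 2.41e-04). That call held with every single array left out, whereas 1 member of the list was called without control replicate 1, 2, 3 or 5 or without 162 µg replicate 1.

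Neutrophil markers, beside these chemokines, had 1 of 27 expressed members called, or 6 without control replicate 2. The called member was Il1r2, the decoy receptor of interleukin 1, with 0.75, 3.57, 1.03, 0.35 and 0.31 in controls and 2.02, 3.64 and 5.54 at 162 µg. Control replicate 2 lay within the treated range. The mean level of the marker list was 2.53 in control replicate 2 and 2.67 in 162 µg replicate 2, and 0.84 to 1.69 in the other arrays of both groups. The study counted significantly more neutrophils in lavage fluid at this dose than in controls. That count is of cells in the airspaces, whereas the values here are RNA of lung tissue. The lung also keeps neutrophils in its capillaries, and the part of either in these values was not tested. Among monocyte and recruited macrophage markers, 3 of 20 were called higher and none lower. Lgals3, a lectin of activated macrophages and epithelium, rose by 1.06 ± 0.19 and Spp1, or osteopontin, by 0.80 ± 0.16. Alveolar macrophage markers had 1 of 18 called higher and 1 lower, with a median of 0.18 and 5 below 0. Their mean level overlapped, at 3.36 to 3.77 in controls and 3.14 to 4.12 at 162 µg. Marco, a scavenger receptor of these cells that binds particles, rose by 1.51 ± 0.28 (adjusted p = 0.00457). Abcg1, the cholesterol exporter of the same cells, fell by 0.60 ± 0.13 at 1.51-fold. Abcg1 dropped under the fold threshold without control replicate 2 or 4, 18 µg replicate 4 or 162 µg replicate 1 or 4 (log2 -0.58 to -0.50).

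Of 26 NF-kB subunits, TNF family genes and feedback genes, 6 were called higher and 1 lower, with 3 higher when control replicate 3, control replicate 5 or 162 µg replicate 2 was left out. Tnfrsf12a, the receptor of TWEAK, had -2.56, -2.61, -2.44, -2.64 and -2.24 in controls and -1.44, -0.86 and -0.10 at 162 µg, with no overlap, and rose by 1.48 ± 0.18 (adjusted p = 2.43e-04). Tnfsf9, the ligand of 4-1BB, rose by 1.36 ± 0.24, and Traf1, an adaptor of TNF receptors, fell by 0.93 ± 0.14 with all treated lungs below all controls. Of 25 immediate early and AP-1 genes, 5 were called higher and none lower, 4 to 7 with one array left out. Maff, a small Maf protein, rose by 0.97 ± 0.18 and Ier3 by 0.86 ± 0.17. Ereg, an EGF receptor ligand, was not well above background on any control array and is given no fold; its log2 ratio was -4.42 to -3.48 in controls and -2.55 to -1.49 at 162 µg (adjusted p = 0.00378). Hbegf, another such ligand, rose by 0.95 ± 0.19 with no overlap between groups. EGF family ligands and receptors had 4 of 17 called higher and 1 lower, with a median of -0.02 and 9 below 0. Without control replicate 3 or 162 µg replicate 2, 2 of that list were called higher.

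Timp1 inhibits matrix metalloproteinases. It was at -2.41, -2.36, -1.69, -2.79 and -2.15 in controls and at 0.74, 1.10 and 2.35 in treated lungs. With no overlap, it rose by 3.59 ± 0.59 (adjusted p = 0.00180). In the list of metalloproteinases and their inhibitors, 5 of 23 were called higher and none lower, including Timp3 (1.32 ± 0.20) and Adamts4, which cleaves aggrecan and versican (2.17 ± 0.30). Coagulation and fibrinolysis had 4 of 23 called higher and none lower. Tissue factor, F3, which starts coagulation, rose by 1.68 ± 0.24 from 0.35, 0.48, 0.41, 0.94 and -0.02 to between 1.48 and 2.78. Plat, a plasminogen activator, rose by 1.08 ± 0.14.

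Of 45 collagens and matrix genes, 9 were called higher and 3 lower. Lox, which cross-links collagen, rose by 1.80 ± 0.26 and Col4a1, a basement membrane collagen, by 1.35 ± 0.24, both without overlap. Col14a1, a fibril-associated collagen, fell by 1.35 ± 0.28, with 3.47, 3.74, 4.24, 3.93 and 3.82 in controls and 1.59 to 2.79 at 162 µg. The calls of this list depended on single arrays: 5 were higher without control replicate 3 or 5 or 162 µg replicate 2 or 3, and 1 was lower without control replicate 5 or 162 µg replicate 1 or 2. The prolyl hydroxylase P4ha1, needed to fold collagen, fell by 1.45 ± 0.23 on 1 of its 2 probes. Fst, or follistatin, which binds activins, rose by 2.49 ± 0.32 from -2.16, -0.65, -1.21, -1.11 and -1.26 to between 0.41 and 2.21.

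Pgf, a growth factor of the VEGF family, had one of the lowest adjusted p values (2.91e-06). It was at -0.35, -0.26, -0.29, -0.30 and -0.83 in controls and at 0.55, 1.34 and 1.81 in treated lungs, a rise of 1.70 ± 0.13 with no overlap. In vascular growth factors and peptides, 7 of 32 were called higher and 2 lower, or 4 higher without control replicate 4 and 1 lower without control replicate 3 or 5 or 162 µg replicate 2 or 5. Adm, which encodes the vasodilator adrenomedullin, rose by 1.56 ± 0.23 in a fit without 162 µg replicate 4. Apln, or apelin, went the other way, from 0.75, 0.92, 1.17, 0.37 and 0.15 to between -1.33 and -0.52, and fell by 1.64 ± 0.26. Extracellular nucleotide metabolism had 5 of 21 called higher and 1 lower, including the adenosine receptor Adora1 (1.57 ± 0.27), the phosphatase Alpl (1.40 ± 0.20) and, as the lower one, the diphosphohydrolase Entpd8 (-1.33 ± 0.17).

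**Figure D3:**
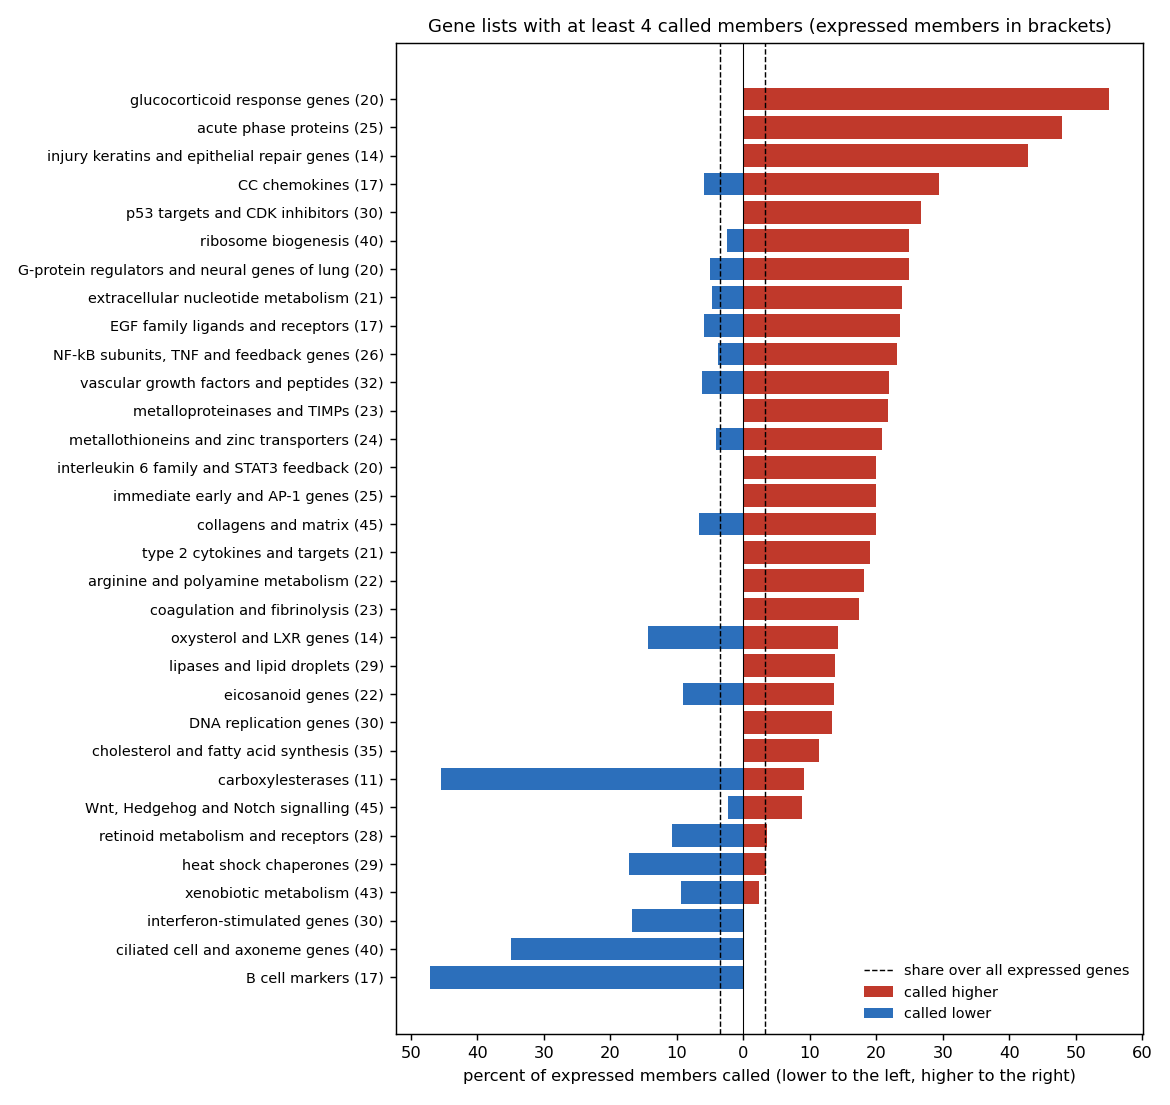
Percent of the expressed members of each gene list called lower (blue, to the left) or higher (red, to the right) at 162 µg, for lists with at least 4 called members, with the number of expressed members in brackets; the dashed lines mark 3.53% and 3.34%, the shares over all expressed genes. Glucocorticoid response genes and acute phase proteins have the longest red bars, and B cell markers, carboxylesterases and ciliated cell genes the longest blue ones.

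Genes that glucocorticoids induce through their nuclear receptor had 11 of 20 expressed members called higher and none lower, with a median log2 fold change of 1.04. Fkbp5, a chaperone of that receptor, had -1.42, 0.20, -1.03, -2.06 and -2.02 in controls and 0.86, 1.23 and 1.53 at 162 µg. Control replicate 2 was nearest to the treated lungs, without reaching them, and the rise was 2.28 ± 0.35 (adjusted p = 0.00111). Angptl4, an inhibitor of lipoprotein lipase, showed the same spread among controls, with -0.82, 2.17, 0.70, 1.24 and -0.70 against 3.20 to 3.55, and rose by 2.67 ± 0.43 (adjusted p = 0.00168). The mean level of the list was 2.29 in control replicate 2, 0.84 to 1.44 in the other controls and 2.41 to 2.87 at 162 µg. With 1 array left out the count was 6 to 14: it fell to 6 without control replicate 4, control replicate 5 or 162 µg replicate 3 and to 7 without control replicate 3, and was 14 without control replicate 2. Without 162 µg replicates 4 and 6 it was 7. Mt2, Nfkbia and Angptl4 are among the members also on other lists here. Hif3a, a hypoxia-inducible factor subunit, rose by 2.30 ± 0.39, from 0.29, 1.5, 0.81, -0.35 and -0.32 to between 2.37 and 3.54.

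Of 30 p53 targets and CDK inhibitors, 8 were called higher and none lower, or 5 higher without control replicate 4. Gadd45g, a growth arrest gene, had -0.38, 0.68, -0.31, 0.53 and -0.02 in controls and 1.16 to 2.50 at 162 µg, with no overlap, and rose by 1.74 ± 0.20 (adjusted p = 1.72e-04). Plk3, a stress-responsive kinase, rose by 1.15 ± 0.11 and Gdf15, a secreted stress cytokine, by 1.07 ± 0.13. The list median of 0.23 changed sign after median centring, to -0.07. In the same lungs 10 of 40 ribosome biogenesis genes were called higher and 1 lower, with a median of 0.37. Ddx21, an RNA helicase of the nucleolus, rose by 0.98 ± 0.17 and Gnl3, or nucleostemin, by 0.89 ± 0.11. Pes1 was the exception and fell by 0.82 ± 0.16, on 1 of its 2 probes. All 6 treated mice had a higher mean level of this list (-0.88 to -0.56) than any control (-1.22 to -1.09). The count was 6 without 162 µg replicates 4 and 6. Ribosomal proteins had none of 38 called by limma (2 at an unadjusted p under 0.05), and mitosis and spindle genes none of 29 (1 at that p). DNA replication genes had 4 of 30 called higher and none lower (16 at that p), with a median of 0.35. Their count was 1 without control replicate 4, 18 µg replicate 6 or 162 µg replicate 1. It was 2 without control replicate 1 or 2 or 162 µg replicate 6. In arginine and polyamine metabolism 4 of 22 were called higher and none lower, with a median of 0.06 and 10 below 0. Those called included Srm, or spermidine synthase, which rose by 1.00 ± 0.12, and Arg2 (1.38 ± 0.23).

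Other lists had few members called higher. The medians of lipase and lipid droplet genes (0.28) and of NRF2 target genes (0.09) were below 0 without normalization (-0.02 and -0.22). Plin2, which coats lipid droplets, rose by 0.91 ± 0.14, one of 4 of 29 lipase and lipid droplet genes called higher. Pla1a, a phospholipase of phosphatidylserine, was outside that list and had -1.36, -1.18, -0.88, -0.95 and -0.97 in controls and 0.92 to 1.86 at 162 µg, a rise of 2.50 ± 0.25 (adjusted p = 6.35e-05) with no overlap. Pmvk and Hsd17b7, of cholesterol synthesis, rose by 1.42 ± 0.24 and 0.80 ± 0.17. They were among 4 of 35 cholesterol and fatty acid synthesis genes called higher, with none lower. That count was 2 without control replicate 4 or 162 µg replicate 1. NRF2 target genes had 3 of 31 called higher and none lower: Akr1b8 (1.29 ± 0.24), Fth1, the ferritin heavy chain (0.94 ± 0.13), and Txnrd1 (0.64 ± 0.14), with 5 called without 54 µg replicate 3. Ch25h, which makes 25-hydroxycholesterol, rose by 2.18 ± 0.47, and Ptgs1, or cyclooxygenase 1, by 1.63 ± 0.31. Their lists went both ways. Oxysterol and LXR genes had 2 of 14 called higher and 2 lower, and eicosanoid genes had 3 of 22 called higher and 2 lower. Of the eicosanoid genes, 1 was higher without control replicate 3 or 5 or 162 µg replicate 1, 2, 5 or 6. Clca3a2, a member of the chloride channel accessory family, rose by 2.41 ± 0.28 (adjusted p = 1.79e-04), from 0.27 to 1.57 in controls to 2.75 to 4.45. Aldh1a3, which makes retinoic acid, rose by 2.99 ± 0.67 (adjusted p = 0.0129) with no overlap, and its call was lost without control replicate 3 (adjusted p = 0.0549).

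Among the epithelial genes, the injury keratin and repair list had 6 of 14 called higher and none lower, or 3 without control replicate 3, 162 µg replicate 1 or 162 µg replicate 2. Krt7, a keratin of simple epithelia, had 4.14, 3.99, 4.15, 3.83 and 4.00 in controls and 4.59 to 6.13 at 162 µg, and rose by 1.17 ± 0.19 (adjusted p = 0.00155). Markers of alveolar type I cells had 2 of 13 called higher (Krt7 and Pdpn, 1.04 ± 0.21) and those of type II cells 1 of 18. The type II level was 3.99 to 4.23 in controls and 3.93 to 4.41 at 162 µg. Claudins and junction genes changed singly, with 1 of 25 called higher and 1 lower. Cldn8, which seals the paracellular path, fell by 1.25 ± 0.14 with all treated lungs below the controls. Cldn2 went the other way and rose, by 0.93 to 1.31 over the fits with 1 array left out. Its call was lost without control replicate 3 or 4 or 162 µg replicate 1 or 2.

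Of all the lists, ciliated cell and axoneme genes had the most members called lower. Of 40 expressed members, 14 were called lower and none higher, the median log2 fold change was -0.89, and 38 of 40 were below 0. Rsph1 and Rsph4a, of the radial spokes of motile cilia, fell by 1.45 ± 0.30 (adjusted p = 0.00751) and 1.37 ± 0.27 (adjusted p = 0.00539). Rsph1 had 2.70, 2.52, 2.44, 2.90 and 2.43 in controls, and 0.10, 1.09 and 1.77 at 162 µg. Outside the list, the dynein heavy chain Dnah6 fell by 1.80 ± 0.34 and Cfap161 by 1.67 ± 0.22, from 2.35, 2.17, 2.25, 2.75 and 2.24 to between 0.13 and 1.58. None of these overlapped between groups, and the probes of Rsph1 were both called.

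The treated lungs varied more than the controls in this group. The mean level of the cilia list was 2.42 to 2.65 in controls and 0.85 to 2.33 at 162 µg, with 162 µg replicate 6 lowest at 0.85. Leaving out that array gave 10 calls, and leaving out both replicates 4 and 6 gave 12. The count was 8 without control replicate 5 and 9 without 162 µg replicate 1, and at most 20 over the fits with an array left out. The element GTTGCCATG, bound by RFX factors of ciliated cells, was in 5 of 451 promoters of genes called lower (1.1%). It was in 1 of 420 of genes called higher (0.2%) and 68 of 13004 of all expressed genes (0.5%). The element was absent from the window of Dnah6 and present in that of the chaperone gene Hsph1. It stood 42 bases before the start of Cfap161, shown in capitals on the reverse complement as CATGGCAAC:
Cfap161 (chr7:83794840-83795089, reverse strand): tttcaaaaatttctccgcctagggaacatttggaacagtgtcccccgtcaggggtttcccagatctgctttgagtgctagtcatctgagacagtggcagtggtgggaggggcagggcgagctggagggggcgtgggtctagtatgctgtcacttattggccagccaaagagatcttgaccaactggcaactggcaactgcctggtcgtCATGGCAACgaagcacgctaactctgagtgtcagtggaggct
Club and goblet cell markers, from the other main cells of the airway lining, had 2 of 17 called lower and none higher. Cyp2f2, the main cytochrome P450 of club cells, fell by 1.00 ± 0.19, and its treated values (5.87 to 7.58) overlapped the controls (6.61 to 8.13). The Cyp2f2 call was lost with median centring, without normalization, with quantile normalization between arrays, with no slide term, with slide as a random block and with the replicate block in place of slide. Over all alternatives its log2 fold change ran from -2.15 with Cy5 alone to -0.54 with quantile normalization. Basal cell markers had none of 7 called by limma (0 at an unadjusted p under 0.05).

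Among lymphocyte markers, those of B cells had 8 of 17 called lower, none higher and a median of -0.63. Vpreb3, a chaperone of the B cell receptor, had 3.64, 3.79, 4.27, 4.43 and 3.82 in controls and 0.99, 2.21 and 3.31 at 162 µg. With no overlap, it fell by 1.80 ± 0.28 (adjusted p = 0.00120). Cr2, the complement receptor CD21, fell by 1.02 ± 0.19 on both of its probes. Without 162 µg replicate 1, 5 B cell markers were called. The mean level of the list was 0.67 to 1.13 in controls and -0.28 to 0.54 in treated lungs, all 6 of them below the controls. NK cell markers had 3 of 11 called lower, and Klre1, a receptor of NK cells, fell by 1.22 ± 0.22. In that list 1 member was called when control replicate 1, 2 or 3, 18 µg replicate 2 or 3, 54 µg replicate 2 or 4, or 162 µg replicate 1, 2 or 5 was left out. T cell markers had a median of -0.16 with 7 of 21 above 0, and 2 of 21 were called lower, Lck (-0.83 ± 0.16) and Zap70 (-0.71 ± 0.17), the kinases of the T cell receptor, of which Zap70 was lost without control replicate 3 or 5 or 162 µg replicate 1, 2 or 5 (adjusted p = 0.0541 to 0.0816).

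Interferon-stimulated genes had 5 of 30 called lower and none higher, with a median of -0.26. The guanylate-binding proteins Gbp2 and Gbp3, induced by interferon gamma, fell by 0.72 ± 0.13 and 0.79 ± 0.14, with all treated lungs below all controls. Without control replicate 3 or 162 µg replicate 3 the count was 3. Of 29 heat shock chaperones, each counted by its representative probe, 5 were called lower, 4 to 7 with an array left out, and 1, Hspa4, higher. Hsph1, a nucleotide exchange factor of Hsp70, had -0.07, 0.24, -0.60, 0.60 and 0.75 in controls and -1.97, -1.61 and -1.09 at 162 µg. It fell by 1.70 ± 0.33 (adjusted p = 0.00519), with no overlap. Hspa4l fell by 1.30 ± 0.19 and Hsp90ab1 by 0.93 ± 0.21. Over all its probes Hspa4 cannot be given a direction, since 1 of its 3 probes was called higher and 2 were called lower.

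Carboxylesterases hydrolyse esters, drugs and lipids. Of 11 expressed members 5 were called lower, and 1, Esd, was called higher. Ces2b had 1.20, 1.60, 2.17, 1.38 and 1.52 in controls, and 5 treated lungs lay between -0.06 and 0.67. It fell by 1.31 ± 0.22 (adjusted p = 0.00315) in a fit without 162 µg replicate 4. The count was 2 without 162 µg replicate 1 and 3 without control replicate 3 or 162 µg replicate 2. In xenobiotic metabolism 4 of 43 were called lower and 1 higher, or 10 lower without control replicate 4. Cyp2s1, an epithelial cytochrome P450, fell by 1.45 ± 0.20 with no overlap. Aldh3a1, an aldehyde dehydrogenase, fell by 1.17 ± 0.12 (adjusted p = 6.71e-05), although 162 µg replicate 3 (0.47) lay within the controls (0.44 to 1.55). The Aldh3a1 call was lost with no slide term and without normalization. Rarb, the retinoic acid receptor beta, fell by 0.97 ± 0.18.

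**Figure D4:**
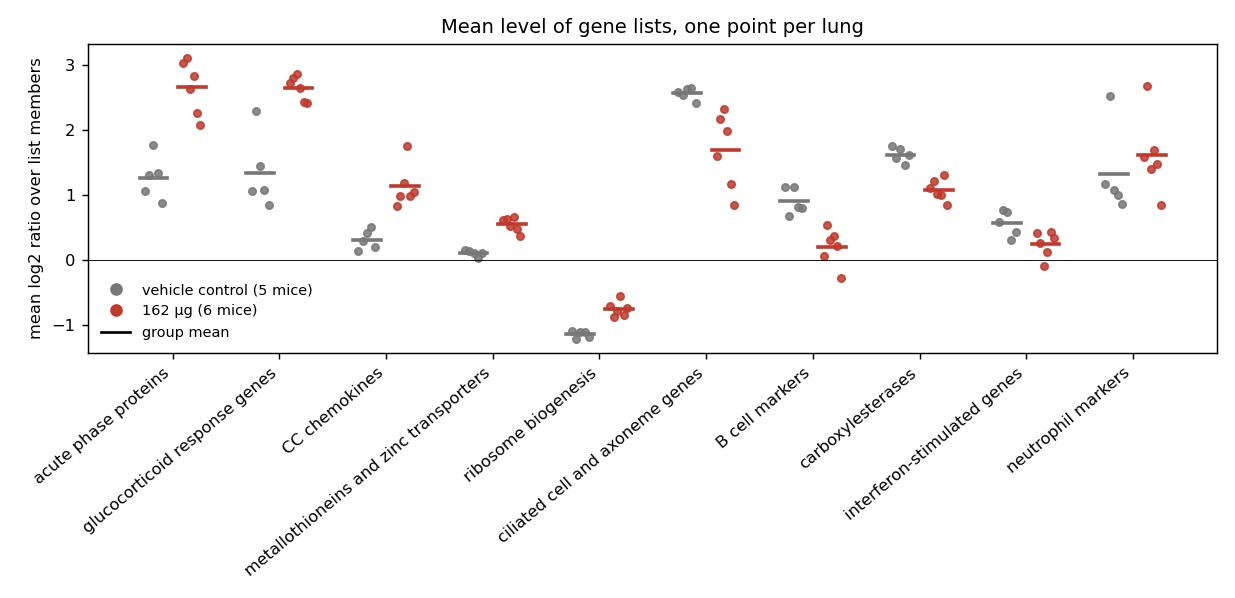
Mean log2 ratio over the expressed members of 10 gene lists (y axis), one point per lung, grey for control and red for 162 µg, with bars at the group means. The treated lungs lie above all controls for acute phase proteins, glucocorticoid response genes, CC chemokines, metallothioneins and ribosome biogenesis, and below them for ciliated cell genes, B cell markers and carboxylesterases; the neutrophil markers overlap.

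Several of the largest falls, with that of Colq the largest, were in single genes outside these groups. Colq, the collagen tail of acetylcholinesterase, had 3.74, 4.17, 4.03, 3.25 and 3.40 in controls and 0.54, 0.79 and 1.93 at 162 µg. It fell by 2.60 ± 0.30 (adjusted p = 1.79e-04) on 1 of its 2 probes. Asgr1, a subunit of the asialoglycoprotein receptor, had 1.18, 0.33, 0.31, 0.25 and 1.01 in controls and -1.68, -1.21 and -0.92 in treated lungs. Both of its probes were called, and it fell by 1.95 ± 0.17 (adjusted p = 1.14e-05). Spon2, a secreted matrix protein, went from 0.19, -0.63, -0.45, 0.72 and 0.33 to -2.71, -2.13 and -1.26, and fell by 1.94 ± 0.36 (adjusted p = 0.00406). For each of these genes the groups were separate. H3c15, a replication-dependent histone H3 gene whose sequence is shared by other H3 genes, fell by 1.75 ± 0.25, and near-identical copies may contribute to its signal. Igsf10 fell by 1.66 ± 0.20 on 2 of its 3 probes. Meig1 fell by 1.64 ± 0.37, and was not called when control replicate 5 or 162 µg replicate 1 was omitted (adjusted p = 0.0534 to 0.0591).

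**Figure D5:**
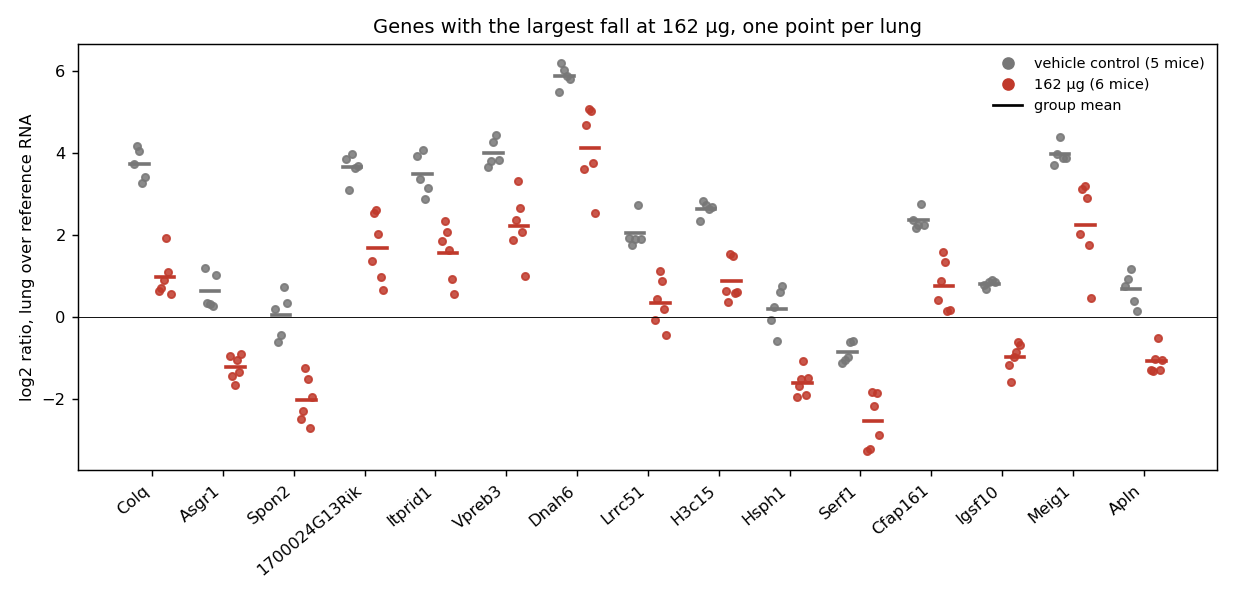
Log2 ratio of lung over reference RNA (y axis) for the 15 genes with the largest fall among those with all 6 treated mice below all controls (x axis), with grey points for control lungs, red points for lungs at 162 µg and bars at the group means. Colq falls from between 3.25 and 4.17 to between 0.54 and 1.93, and the ciliary genes Dnah6 and Cfap161 spread widely at 162 µg.

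The high dose was set against the lower doses in the same model. Against 18 µg, 819 of 16422 expressed genes differed by the same thresholds (4.99%), and against 54 µg none did (0%; limma, with 2042 genes at an unadjusted p under 0.05). Genes that differed from 18 µg included Fkbp5 (2.52, adjusted p = 4.81e-04), Hif3a (2.99, adjusted p = 2.77e-04), Clca3a2 (2.71, adjusted p = 6.87e-05), Mt2 (3.39, adjusted p = 1.14e-04) and Serpina3m (2.53, adjusted p = 3.77e-05). Genes that were lower at 162 µg than at 18 µg included Apln (-1.73, adjusted p = 6.54e-04), Spon2 (-2.48, adjusted p = 5.96e-04) and Hsph1 (-1.49, adjusted p = 0.00945). For others the difference from 18 µg did not pass: Timp1 had 0.42 (adjusted p = 0.793), Ccl2 0.20 (adjusted p = 0.899), Asgr1 -0.15 (adjusted p = 0.724) and Rsph1 -0.40 (adjusted p = 0.546). A p above the threshold does not show that 2 doses act alike.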

How the data were processed

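Right lung RNA in Cy5 and reference RNA in Cy3 were read on 22 two-colour Agilent arrays over 7 slides, with no dye swap. The authors deposited scanner files with median signal intensities without background subtraction, from Feature Extraction version 10.7.3.1 as the headers record, and a table of processed log2 ratios, which was used here as an alternative. The files hold no mean signals, so normexp was run on median signals.

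From the intensities, with control spots removed, log2 of Cy5 over Cy3 was normalized within each array by loess (span 0.3, outlier spots at weight 0). Outlier spots were then left out, and repeated spots of a probe were combined by their median. Expressed probes exceeded the 5% trimmed mean plus 3 trimmed SD of 308 negative control spots. limma 3.58.1 in R 4.3.3 was fitted with dose group and slide to all 22 arrays (12 residual degrees of freedom), with Benjamini-Hochberg adjustment over 55681 probes, after testing on simulated data. RefSeq accessions named 26413 probes, or 20018 genes; the array design names of others were not used. P-values measure the spread between these mice, and the number of arrays limits precision.

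Named genes were the 15 largest changes in each direction with all mice apart, up to 4 called members per direction of each of 71 lists, and genes the study discusses, 211 in all, some of which are not reported here. Members and lists were chosen with earlier results of these data known. Promoters come from the RefSeq table (GRCm38.p6), the first listed per gene. Alternatives covered background correction, normalization, channel, slide, replicate block, filters, thresholds and leaving out arrays; quantile normalization and leaving out 162 µg replicates 4 and 6 were added after seeing the data.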

Additional observations from a re-analysis of the deposited data

Results flagged for a closer look

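In 12 of the 218 groups of values checked for the genes and lists described above, 1 array stood apart from the rest of its group by Dixon's test; chance alone marks about 1 in 20 groups. Among controls, replicate 2 was high for Il1r2 (log2 ratio 3.57, next 1.03) and for the mean level of the neutrophil markers (2.53, next 1.17). Control replicate 4 was high for Aldh3a1 (1.55, next 0.60) and Cyp2f2 (8.13, next 7.00), control replicate 3 for Saa1 (0.73, next -1.19) and control replicate 1 for Lck (0.08, next -0.32), while control replicate 5 was low for Pgf (-0.83, next -0.35).

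At 162 µg, replicate 3 was low for Cxcl1 (-2.82, next -2.02) and high for Cyp2f2 (7.58, next 6.38). Replicate 5 was low for Hpx (1.43, next 3.26), replicate 4 was high for Apln (-0.52, next -1.05) and replicate 1 was high for Ces2b (0.67, next 0.13).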

How the results depend on the processing

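Of 1268 genes called at 162 µg (634 higher, 636 lower), median centring in place of loess left 370 (92 higher, 278 lower), no normalization 8 (3 higher, 5 lower), a replicate block with slide 407 (205 higher, 202 lower), least squares without shrinkage 759 (374 higher, 385 lower) and a 2-fold threshold 380 (207 higher, 173 lower). Without a fold threshold 2033 genes were called (978 higher, 1063 lower). Leaving out one array gave 885 to 1453 genes, 434 to 733 higher and 437 to 770 lower. The other alternatives gave 932 (deposited log2 table) to 1384 (replicate block in place of slide). Same-numbered control and 162 µg arrays deviated together in 3 of 5 pairs (r = 0.237, 0.172 and 0.16) but not in the others (0.089 and -0.11). The pair at 0.16 also shared a slide, so number and slide cannot be told apart there. Pairs on a shared slide had r from 0.14 to 0.374. With these values, the numbers of the replicate block were not taken as pairing the samples. None of the 204 called named genes changed sign under any alternative run. They were largely chosen by their calls on these same arrays, so the kept signs are a description. Of the 204, 124 kept their call with every single array left out. The call was lost by 198 without normalization, 129 with median centring, 113 under the replicate block with slide and 46 in the deposited table. Causes were not tested. Probes dim against background, as Il6 in controls, have only bounds.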

Other observations

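Probes without a gene name here also moved at 162 µg. Among 9586 expressed probes for genomic regions, 73 were called higher and 135 lower (2.17%), and among 2757 for Ensembl transcripts 52 were called in each direction (3.77%). Of 5641 other unnamed probes, 144 were called higher and 148 lower (5.18%), against 6.5% of the 21505 expressed probes of named genes. Cardiac muscle genes had a mean level that ran from 0.00 to 4.28 in controls and from 0.08 to 3.21 at 162 µg, with none of 16 called by limma, and adipocyte markers had one from 1.70 to 3.51 and from 0.38 to 5.09, with none of 10 called. Mesothelial markers ran from 0.82 to 1.62 in controls and from 0.86 to 2.49 at 162 µg.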
